A study of Mus musculus with 4 samples.

Results

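The subunits of oxidative phosphorylation were followed across the cell types of the mouse kidney. The 96 genes were chosen by symbol, as the listed genes whose names give a subunit of complexes I to V or cytochrome c1, without pseudogenes, out of 32285 genes listed in each library. Of these, 13 are encoded by mitochondrial DNA and 83 by nuclear chromosomes. Complex I holds 45 of them (7 mitochondrial), complex II 4, complex III 10 (1 mitochondrial), complex IV 18 (3 mitochondrial) and complex V 19 (2 mitochondrial). The 13 mitochondrial subunits are all the genes with an mt- symbol in these libraries, so their sum is also the mitochondrial share of a barcode. Ndufa4 was counted with complex I after its symbol, although its protein has since been placed in complex IV.

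Whole kidneys of male mice on the C3H/HeJ background were dissociated at 18 weeks of age and sequenced by droplet-based single-cell RNA-Seq, 1 library per condition. WT-ND and WT-HFD are wild-type mice on normal diet or on a high-fat diet (60% of calories from fat), given for 8 weeks from 10 weeks of age. SP-ND and SP-HFD are Sweet Pee mice, homozygous for a missense mutation in Slc5a2, the gene of the glucose transporter SGLT2, on the same diets. Where 4 values stand in a row they belong, in order, to WT-ND and WT-HFD, then to SP-ND and SP-HFD. The mutation is carried in every tissue, so SP differs from WT in the whole body and not only in the proximal tubule. With 1 library per condition there was no replicate of a condition, no test was made, and a difference between mice or between preparations cannot be told apart from one of diet or genotype. Every interval below is a 95% interval for counting error only.

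The electron transport chain passes electrons from NADH (complex I) and succinate (complex II) through ubiquinone, complex III and cytochrome c to oxygen at complex IV, and the proton gradient built on the way drives ATP synthase (complex V). Mitochondrial DNA encodes core subunits of complexes I, III, IV and V, and complex II is wholly nuclear, so each of the other complexes needs both genomes. In the kidney this machinery pays for ion and solute transport, above all in the proximal tubule, the thick ascending limb and the distal convoluted tubule, which are packed with mitochondria, and the proximal tubule has little capacity for glycolysis to fall back on.

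Some of the 13 mitochondrial subunits share letters with their neighbours, which bears on how reads are counted for each. mt-Atp8 and mt-Atp6, a pair of complex V subunits read from 1 messenger RNA, overlap by 43 bases (chrM:7927-7969, GRCm38, plus strand), and mt-Nd4l and mt-Nd4, of complex I, overlap by 7 bases (chrM:10167-10173, plus strand). mt-Nd5 and mt-Nd6, also of complex I, overlap by 14 bases on opposite strands (chrM:13552-13565). The ends of the upstream genes of the first 2 pairs are printed 5′ to 3′ from the GENCODE transcripts on GRCm38, with the overlap in capitals.
mt-Atp8, chrM:7910-7969: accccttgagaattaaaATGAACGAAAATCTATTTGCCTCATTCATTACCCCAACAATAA
mt-Nd4l, chrM:10150-10173: aatctcaacctactacaATGCTAA

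The nuclear subunits are scattered over the genome and share no promoter, but factors tied to mitochondrial genes (NRF1, GABP, YY1 and the estrogen-related receptors, ERR) have short recognition letters that can be looked for. A window from 250 bases before to 50 bases after the start site was held for 67 of the 83 nuclear subunits, from RefSeq on GRCm38.p6, and was searched on both strands. The NRF1 letters GCATGCGC stood in 10 of 67 (14.9%), against 3.05% of 27025 genes. The YY1 letters AAGATGGCG stood in 7 of 67 (10.4%), against 1.64% of all genes. The GABP letters CCGGAAGT stood in 5 of 67 (7.46%), against 4.31%, and the ERR letters TCAAGGTCA in 2 of 67 (2.99%), against 0.466%. The 4 motifs do not contain one another, and a match is a description of the letters and not of binding. Examples of each are shown, with the match in capitals on the strand of the gene, so that a match on the other strand reads as the reverse complement. All 6 genes lie on the minus strand.
Atp5l (NRF1), chr9:44920940-44920992: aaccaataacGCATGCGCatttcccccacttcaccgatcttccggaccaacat
Cox6a1 (NRF1), chr5:115349078-115349155: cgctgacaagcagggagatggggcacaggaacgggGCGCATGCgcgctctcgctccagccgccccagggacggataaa
Atp5j (YY1), chr16:84835021-84835099: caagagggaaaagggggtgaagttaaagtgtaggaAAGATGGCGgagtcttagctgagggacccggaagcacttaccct
Atp5h (GABP), chr11:115419920-115419993: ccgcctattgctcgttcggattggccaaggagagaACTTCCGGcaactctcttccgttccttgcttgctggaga
Uqcrh (GABP), chr4:116075071-116075116: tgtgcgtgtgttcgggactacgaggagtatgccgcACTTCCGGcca
Atp5g3 (ERR), chr2:73911335-73911413: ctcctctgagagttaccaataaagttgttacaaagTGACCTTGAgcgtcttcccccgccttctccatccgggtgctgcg

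The libraries held 13229 to 16385 barcodes and 90728590 to 115117649 UMIs, and pairs of libraries shared 54 to 77 barcode sequences. Barcodes with 50% or more mitochondrial UMIs made up 32.7%, 33.2%, 49.8% and 42.1% of the 4 libraries. Below that limit, 32280 cells were kept (6389 to 9924 per library), and 11 cell classes with at least 50 cells in every library were compared. Classes were named from marker genes after clustering without any mitochondrial gene or subunit, so the subunits did not define them. Proximal tubule-like cells carried Slc5a2 at 491, 405, 92.7 and 152 UMIs per 1000000 nuclear UMIs in the 4 libraries, lower in both SP libraries. A cluster of 706 cells, 689 of them from WT-HFD, met no marker rule and was left unnamed. Of the 2257 distal convoluted tubule-like cells, 564 came from a cluster with mixed markers. Its 10 top genes held 2 markers of the class and 2 of the connecting tubule and principal cell list (Slc8a1 and Calb1). Without integration, a cluster of 1349 cells with Slc8a1 and Calb1 among its top genes was unnamed.

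Nuclear subunits are given as UMIs per 1000000 nuclear UMIs (CPM), so that a barcode's mitochondrial share does not lower them, and mitochondrial subunits as a share of all UMIs. Both scales count transcript ends by 3′ UMIs, so levels were not divided by transcript length. Summed over the 83 nuclear subunits, the distal convoluted tubule-like cells were highest, at 102994, 103573, 97937 and 109799 CPM in the 4 libraries. The thick ascending limb-like cells followed at 92851, 103858, 90887 and 102982, and the intercalated cell-like cells at 83082, 85341, 84605 and 94085. The thick ascending limb-like range overlapped those of both others, while the distal convoluted tubule-like range lay wholly above the intercalated cell-like range. Each of the 3 stood above every other class in every library.

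The proximal tubule-like cells were not among them. Their nuclear subunits summed to 53309, 60786, 59364 and 60955 CPM in the 4 libraries. That is the range of the thin limb and inner medulla-like cells (55049 to 64796) and of the connecting tubule and principal cell-like cells (50171 to 61005), from which they could not be separated. Fibroblast or mural-like cells (32005 to 51160) and podocyte-like cells (33299 to 46921) came lower. The top of the fibroblast or mural-like range overlapped the connecting tubule and principal cell-like range. Endothelial-like cells (23827 to 26997), T or NK-like cells (22086 to 24340) and macrophage or dendritic-like cells (20207 to 23128) were lowest, apart from all other classes and overlapping in neighbouring pairs.

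The mitochondrial subunits gave another order. They took 32.9%, 32.7%, 37.3% and 32.8% of all UMIs in proximal tubule-like cells of the 4 libraries. The thick ascending limb-like cells had 32.1 to 36.1% and the distal convoluted tubule-like cells 32.4 to 33.1%, and those 3 ranges overlapped. For every UMI of a nuclear subunit, proximal tubule-like cells held 9.21, 7.98, 10.0 and 8.01 UMIs of a mitochondrial subunit, against 4.60 to 6.21 in the thick ascending limb-like and 4.51 to 4.99 in the distal convoluted tubule-like cells. Podocyte-like cells had 2.87 to 3.97. The proximal tubule-like range lay above that of each of those classes. That ratio set the proximal tubule-like cells apart from the thick ascending limb-like and distal convoluted tubule-like cells. Among kept cells, the proximal tubule-like cells had a mitochondrial share among the highest beside a middling nuclear level.

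**Figure D1:**
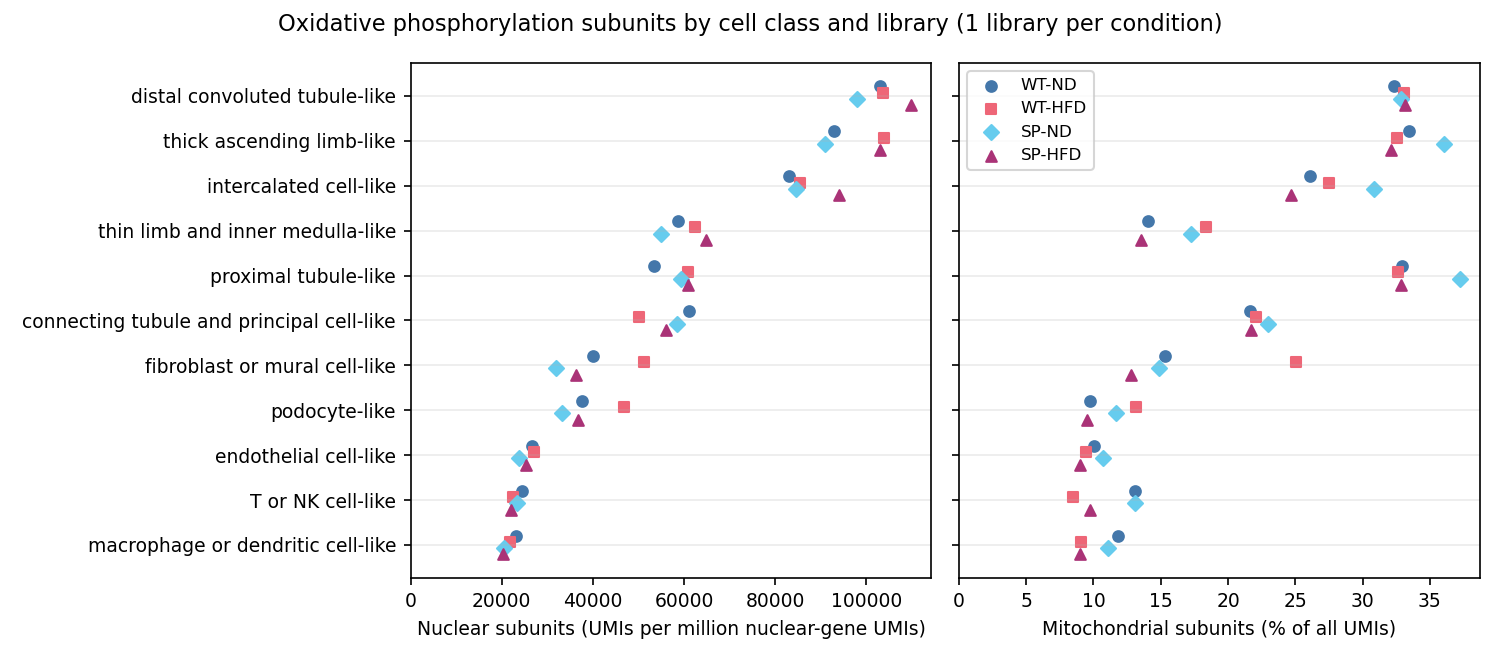
Summed nuclear subunits in CPM and mitochondrial subunits as a percentage of all UMIs, by cell class, with 1 point per library coloured by condition. Distal convoluted tubule-like, thick ascending limb-like and intercalated cell-like cells hold the 3 highest nuclear levels, while proximal tubule-like cells (53309 to 60955) share the highest mitochondrial percentages. Only kept cells are shown, so the percentages are bounded by the limit on mitochondrial UMIs.

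The gap between thick ascending limb and proximal tubule was general over the subunits. Of the 79 nuclear subunits with a mean of at least 20 CPM over both classes, 69 had all 4 thick ascending limb-like values above all 4 proximal tubule-like values and 0 had them below. Over all 6361 nuclear genes measured, 41.8% were above in this way and 24.6% below. The median log2 difference was 0.76 over the subunits and 0.23 over all genes. Cox4i1, the ubiquitous isoform of a nuclear subunit needed to assemble complex IV, read 4020, 4729, 4323 and 4882 CPM in thick ascending limb-like cells of the 4 libraries, against 1769, 1934, 2145 and 2034 in proximal tubule-like cells. Atp5b, the catalytic beta subunit of ATP synthase, read 3065, 3096, 3160 and 3279 against 1747, 1919, 1806 and 1921. Neither gene's groups overlapped.

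Of the 10 subunits that did not separate, 9 were counted with complex I: Ndufa1, Ndufa2, Ndufa4, Ndufa6, Ndufa13, Ndufb3, Ndufb4, Ndufs1 and Ndufv3. Ndufa4 is among them by its symbol only, and complex I holds 38 of the 83 nuclear subunits. The other was Sdhc of complex II. Ndufs1, the largest subunit of complex I, which carries iron-sulfur clusters of its electron path, read 231, 242, 230 and 269 CPM in proximal tubule-like cells and 254, 245, 269 and 269 in thick ascending limb-like cells. Those values overlap. The other comparisons gave the same kind of count: the distal convoluted tubule-like cells were above the proximal tubule-like cells in 71 of 79 subunits (37.7% of all genes) and below in 0 (28% of all genes), and the intercalated cell-like cells in 63 of 79 with 2 below (48.5% and 22.5% of all genes). Proximal tubule-like cells were above endothelial-like cells in 74 of 79 (31.5% of all genes) and below in 2 (47.9% of all genes). Between distal convoluted tubule-like and thick ascending limb-like cells, 15 of 80 were above and 5 below (12.4% and 20.5% of all genes). Against proximal tubule-like cells, the connecting tubule and principal cell-like cells had 12 of 79 above and 24 below (40% and 27.6% of all genes), with Sdha, Sdhb, Sdhc, Cyc1, Uqcrc1 and Uqcrc2 among those below.

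Complex II, which also belongs to the tricarboxylic acid cycle, followed the order in Sdha and Sdhb but not in Sdhc and Sdhd. Sdha, the flavoprotein that binds succinate, averaged 500 CPM over the 4 libraries in distal convoluted tubule-like cells, 421 in thick ascending limb-like, 414 in intercalated cell-like and 364 in proximal tubule-like cells, and 94.2 in macrophage or dendritic-like cells. Sdhb, the iron-sulfur subunit, went from 585 in distal convoluted tubule-like cells to 113 in T or NK-like cells. Sdhc and Sdhd anchor the complex in the inner membrane. Sdhc averaged 335 in distal convoluted tubule-like and 254 in proximal tubule-like cells. It read 239, 239, 230 and 262 CPM in thick ascending limb-like cells of the 4 libraries. In intercalated cell-like cells it read 233, 256, 258 and 262, so neither class stood clearly above the proximal tubule-like mean. Sdhd instead peaked in intercalated cell-like cells, with 410, 560, 483 and 550 CPM in the 4 libraries against 278, 292, 274 and 303 in distal convoluted tubule-like cells, which do not overlap. Thick ascending limb-like cells were closer, at 317, 394, 329 and 391 CPM.

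Among subunits with at least 20 CPM in their highest class, the highest class by mean was the distal convoluted tubule-like for 48, the thick ascending limb-like for 19 and the intercalated cell-like for 9. The thin limb and inner medulla-like cells led in 3, and fibroblast or mural-like and T or NK-like cells in 1 each. Intercalated cell-like cells led in Uqcrb, the ubiquinone-binding subunit of complex III, at 2107, 2334, 2321 and 2802 CPM. Distal convoluted tubule-like cells had 1509 to 1741 and thick ascending limb-like cells 1265 to 1568. Thin limb and inner medulla-like cells led in Ndufb8, an accessory subunit of the membrane arm of complex I, at 2081, 2032, 2034 and 2347 CPM. In distal convoluted tubule-like cells Ndufb8 read 1056, 1117, 1077 and 1242, so the thin limb level was higher in every library. The median ratio of the highest to the lowest class over 81 subunits was 5.59. Neither these counts nor this ratio has a value over all genes beside it, so they do not set the subunits apart from other genes.

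Several subunits that exist as isoforms departed from that shared order. Ndufa4l2, a paralog of Ndufa4 known as a hypoxia-inducible gene, was nearly absent outside fibroblast or mural-like cells. There it read 711, 354, 768 and 939 CPM (442, 564, 670 and 651 UMIs) in the 4 libraries, while proximal tubule-like cells held 4, 2, 2 and 5 UMIs. The lowest value, in WT-HFD, stands beside fibroblast or mural markers at 26884 CPM in that library against 41632 to 52992 in the other 3. Ndufa4 itself was high everywhere, from a mean of 438 in macrophage or dendritic-like to 2825 in intercalated cell-like cells.

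Cox7a1, the muscle isoform of a small subunit of complex IV, marked 2 collecting-system and medullary classes. It read 332, 242, 272 and 280 CPM in intercalated cell-like and 249, 174, 196 and 289 in thin limb and inner medulla-like cells. In proximal tubule-like cells it read 41.6, 41.4, 54.7 and 37.4, and in endothelial-like cells 10.6, 6.70, 6.44 and 4.27. The ubiquitous isoform Cox7a2 followed the general order, with means of 2124 in thick ascending limb-like, 1404 in proximal tubule-like and 369 in macrophage or dendritic-like cells. Cox7a2l, which is known to help complexes III and IV assemble into supercomplexes, had another order: its highest mean was in T or NK-like cells at 386, 433, 452 and 495 CPM and its lowest in proximal tubule-like cells at 150, 205, 159 and 184. The T or NK-like range overlapped that of intercalated cell-like (358 to 504), macrophage or dendritic-like (366 to 451) and thick ascending limb-like cells (341 to 436). The proximal tubule-like range overlapped that of distal convoluted tubule-like cells (196 to 275), the class with the highest nuclear sum. It was 1 of the 2 subunits in which proximal tubule-like cells were below endothelial-like cells in every library. The other was Atp5g2.

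Atp5g1, Atp5g2 and Atp5g3 encode the same mature protein, the c subunit of the rotating ring of ATP synthase, from separate genes. Atp5g1 ranged from a mean of 379 CPM in T or NK-like to 3194 in distal convoluted tubule-like cells, and Atp5g3 from 214 in macrophage or dendritic-like to 1639 in distal convoluted tubule-like cells. Atp5g2 was flat by comparison, from 321 in proximal tubule-like to 790 in thick ascending limb-like cells. In T or NK-like and macrophage or dendritic-like cells Atp5g2 had the highest mean of the 3 genes (430 and 449), and in proximal tubule-like cells the lowest. Sequence shared by these genes could have affected how many UMIs were counted for each, which was not tested.

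The remaining isoforms were rare. Cox6b1 averaged 1205 CPM in proximal tubule-like cells, and Cox6b2, known as the testis isoform, 9.22. Cox6a2, the muscle isoform beside the general Cox6a1, had 4, 41, 8 and 24 UMIs in proximal tubule-like cells of the 4 libraries, which is 0.299, 4.36, 0.965 and 4.56 CPM. Both HFD libraries were above both ND libraries, at levels far below Cox6a1 (590 to 747). Cox7b2, another testis isoform, was detected chiefly in podocyte-like cells, with 11, 21, 7 and 18 UMIs (4.16 to 9.74 CPM). In proximal tubule-like cells it had 0 UMIs in each library, which allows up to 0.0826 CPM over the 4 together (3 UMIs). Cox6a2, Cox6b2 and Cox7b2 were the 3 nuclear subunits under a mean of 20 CPM in all kept cells, and with Ndufa4l2 they were the 4 under it in proximal tubule-like cells.

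**Figure D2:**
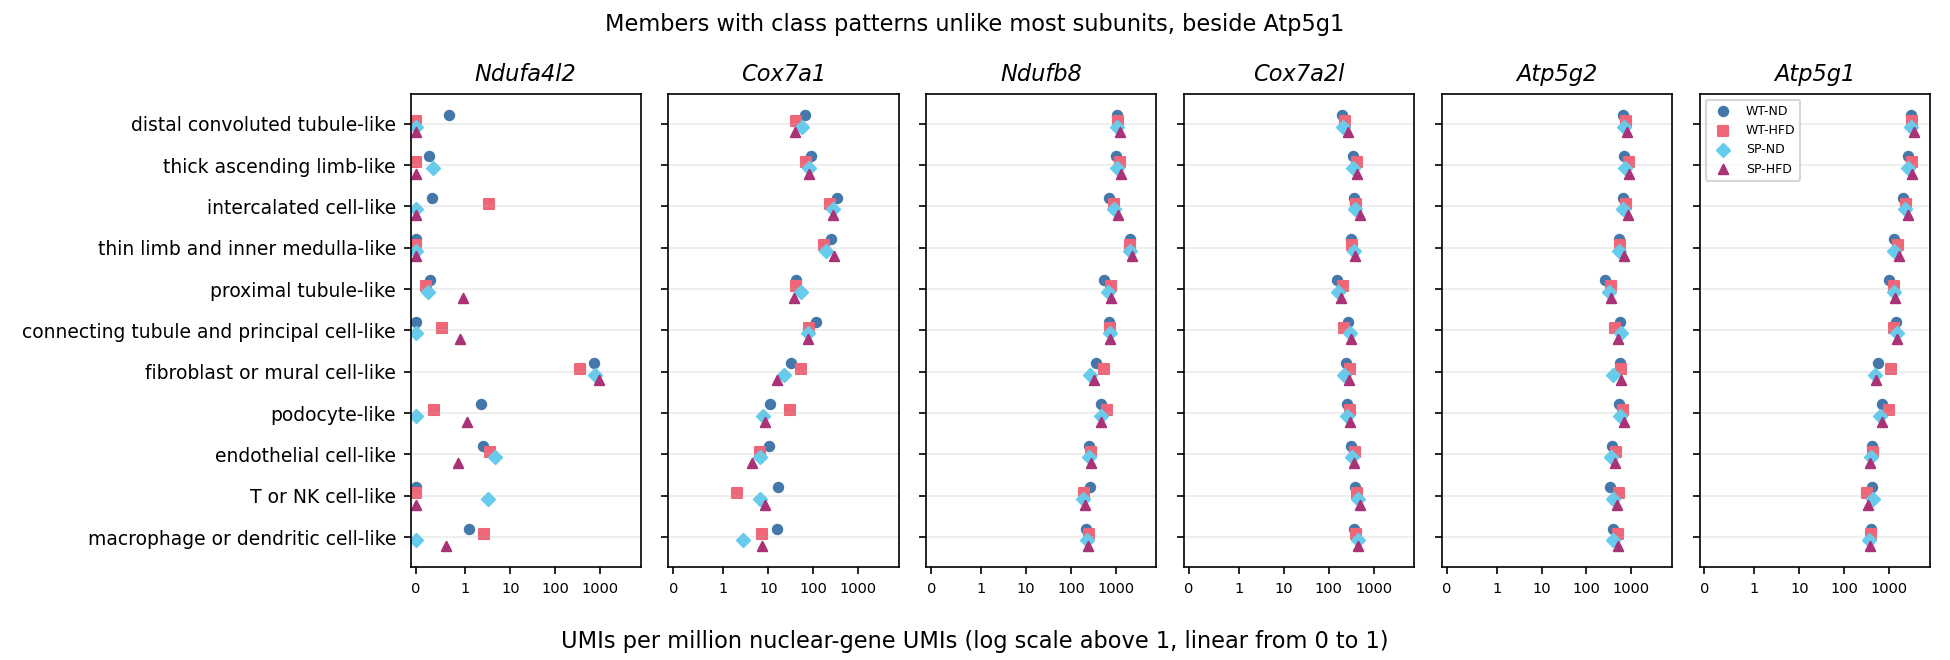
Levels of 6 nuclear subunits in CPM (linear from 0 to 1 and logarithmic above) by cell class, with 1 point per library. Ndufa4l2 averages 693 in fibroblast or mural-like cells and at most 2.87 in any other class, Cox7a1 is highest in intercalated cell-like and thin limb and inner medulla-like cells, and Atp5g2 varies less between classes than Atp5g1.

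The genes that support the chain were listed as assembly factors (45), mitochondrial DNA upkeep and transcription (17), nuclear regulators (11), carriers and control (13) and tricarboxylic acid cycle (13). Of 8 nuclear regulators measured, 5 were above in thick ascending limb-like cells in all 4 libraries (Ppargc1a, Ppargc1b, Esrra, Esrrb and Esrrg) and Ppara was below. Ppargc1a, the coactivator best known for driving mitochondrial biogenesis, averaged 455 CPM in thick ascending limb-like and 78.3 in proximal tubule-like cells. Ppara, the receptor that drives fatty acid oxidation, averaged 14.6 and 63.7. Assembly factors were above in 15 of 34 and below in 6, carriers and control above in 7 of 13 and below in 2, and the tricarboxylic acid cycle above in 7 of 13 and below in 2. The background of all genes is 41.8% above and 24.6% below, as for the subunits. Atpif1, the inhibitor of ATP synthase, was among the carriers and control genes below, at 645 in thick ascending limb-like against 1411 in proximal tubule-like cells.

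Diet and genotype were compared next, within a class, and the proximal tubule-like cells were taken first because SGLT2 acts there. In WT, the nuclear subunits were somewhat higher in the HFD library. The median log2 ratio of WT-HFD to WT-ND over 79 subunits was 0.21, against 0.01 over 5644 genes, and 67 subunits were above 0 and 12 below (50.8% and 49.2% of all genes). The medians by complex were 0.24 for I, 0.33 for II, 0.16 for III, 0.19 for IV and 0.18 for V. At a log2 ratio of at least 0.5, 4 subunits were higher (6.4% of all genes) and 0 lower (5.37% of all genes), so few single subunits moved by much. At 0.25, 31 were higher (20.7% of all genes) and 2 lower (18.4%), and at 1, 0 were higher (1.28%).

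Cox5a, a nuclear subunit of complex IV, was the largest of these, at 627 CPM in WT-ND and 933 in WT-HFD (log2 ratio 0.57, interval 0.53 to 0.62). Its SP values were 745 in SP-ND and 901 in SP-HFD. Ndufb9, an accessory subunit of complex I, read 710 and 1037 in WT (0.55) and 910 and 1028 in SP. Sdhd read 199 and 285 in WT (0.52), and 234 and 252 in SP. Ndufa8, an accessory subunit of complex I, read 277 and 397 in WT (0.52) and 341 and 413 in SP. Each of the 4 was higher in WT-HFD than in WT-ND, and the SP libraries differed by less. Atp5k, the e subunit that helps ATP synthase form dimers, went the other way, from 716 to 543 (log2 ratio −0.40), as did Ndufv3 from 470 to 390 (−0.27) and Ndufa3 from 298 to 253 (−0.24).

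In SP, the median log2 ratio of SP-HFD to SP-ND in proximal tubule-like cells was 0.05, against −0.10 over all genes. None of the 79 subunits was higher by 0.5 (6.43% of all genes) and 1 was lower (12.1% of all genes). At 0.25, 10 were higher (15.5% of all genes) and 4 lower (31.8%), and at 1, 0 were lower (2.34%). The subunit lower by 0.5 was Cox7a1, at 54.7 in SP-ND and 37.4 in SP-HFD (log2 ratio −0.55, interval −0.80 to −0.31, from 454 and 197 UMIs). Ndufb3, an accessory subunit of complex I, had the largest ratio, from 423 to 592 (0.49), and read 418 and 590 in the WT libraries. Ndufs4, whose loss is known to disable complex I, went from 198 to 261 (0.40) and read 180 and 244 in WT. Ndufa13 went from 1221 to 1584 (0.38) and read 1226 and 1597 in WT. For these 3 genes both HFD libraries were above both ND libraries. Ndufv3 (487 to 361, log2 ratio −0.43) and Cox6a1 (747 to 590, −0.34) were lower.

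Between genotypes on ND, the median log2 ratio of SP-ND to WT-ND was 0.17, beside 0.17 over all genes, and 0 subunits were higher or lower by 0.5 (6.79% and 1.77% of all genes). At 0.25, 21 were higher (33.8% of all genes). The largest were Cox7a1 (41.6 to 54.7, log2 ratio 0.39), Uqcrb (940 to 1219, 0.37) and Atp5g1 (978 to 1255, 0.36). The smallest were Atp5k (716 to 632, −0.18), Ndufa1 (766 to 677, −0.18) and Ndufv1 (282 to 263, −0.10), the last of which binds NADH. Between genotypes on HFD the median was 0.00, against 0.05 over all genes, and again 0 were higher or lower (1.51% and 0.425% of all genes). The range was −0.24 (Atp5mpl, 513 to 434) to 0.21 (Sdhc, 264 to 305), and 40 subunits were above 0 and 39 below (65.3% and 34.7% of all genes). The summed nuclear level of 60786 in WT-HFD and 60955 in SP-HFD gave a log2 ratio of 0.00 with an interval of −0.00 to 0.01. In proximal tubule-like cells WT-ND was thus the library that stood lowest, 53309 against 59364 to 60955 in the other 3. Its cells were also shallower, with a median of 5841 nuclear UMIs against 9088 to 9918, and the part of depth in the result was not tested. The comparisons of WT-HFD and of SP-ND with WT-ND share that library.

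Shallow clusters in which the proximal tubule markers were the highest list were kept out of the class, with 1805, 1432, 510 and 443 kept cells in the 4 libraries. Their nuclear subunits summed to 54685, 63896, 60612 and 47657 CPM. The log2 ratio of the sum between diets was 0.22 in WT and −0.35 in SP, where the named class had 0.19 and 0.04, so the SP value was lower in the shallow cells. Without integration, the shallow cluster with that list highest held 1662, 347, 320 and 384 cells in the 4 libraries. A cluster of 2375 cells, 2205 of them from WT-HFD, was then unnamed, with the proximal tubule list again highest. The part of integration in the ratios of the shallow cells was not tested.

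**Figure D3:**
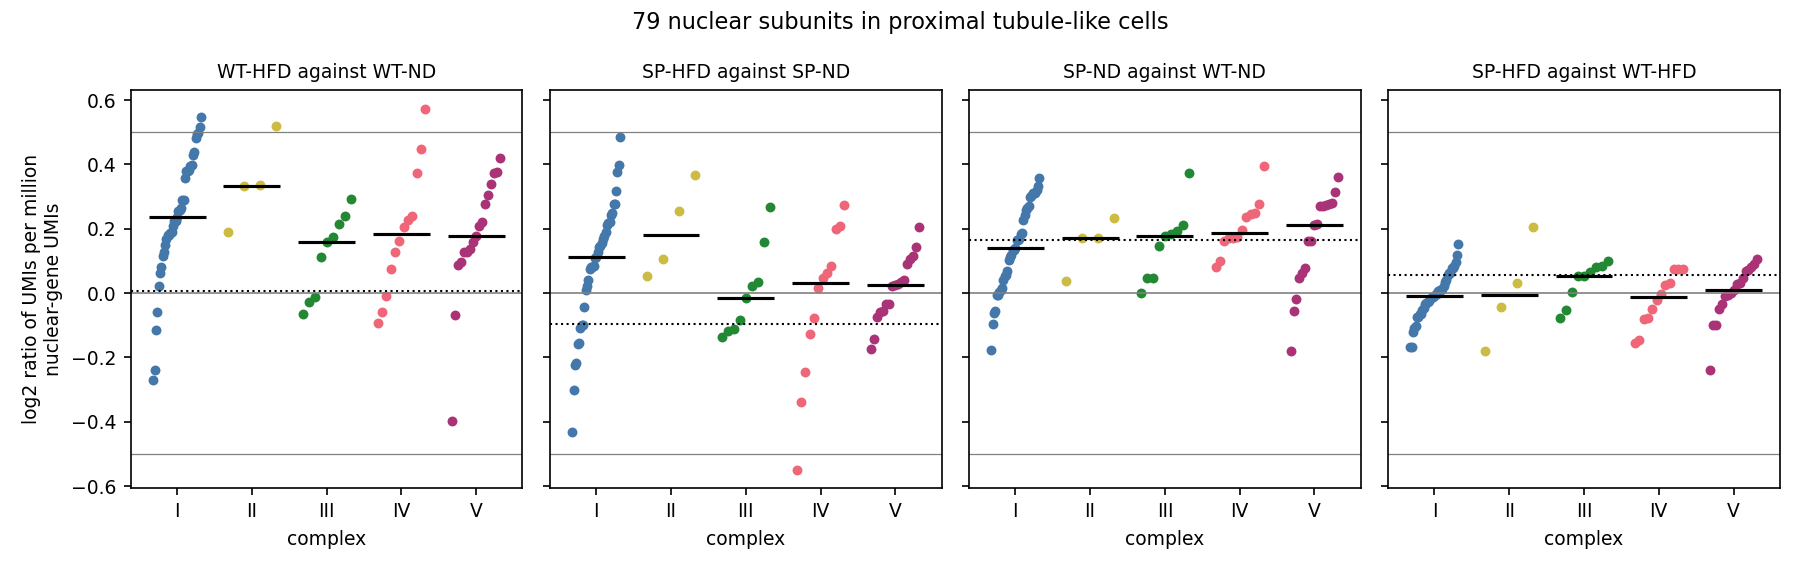
Log2 ratios of the 79 nuclear subunits in proximal tubule-like cells for the 4 comparisons between libraries, with 1 point per subunit, grouped by complex. Bars are the medians of a complex, the dotted line is the median of all genes and thin lines mark 0.5 and −0.5. The WT diet comparison holds the only points above 0.5, and 1 point (Cox7a1) lies below −0.5 in the SP diet comparison.

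The mitochondrial subunits did not follow. Their share of UMIs in proximal tubule-like cells went from 32.9% in WT-ND to 32.7% in WT-HFD (log2 ratio −0.01) and from 37.3% in SP-ND to 32.8% in SP-HFD (−0.18). These shares are bounded above by the 50% limit used to keep cells. When the barcodes at or above 50% placed in the class were added to the kept cells, the ratios were 0.14 and 0.04, so the sign of both depended on that limit.

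Among the supporting genes in proximal tubule-like cells, several stood further from 0 in the diet comparisons than any of the 79 subunits at or above 20 CPM. Cycs, cytochrome c itself, read 872, 1401, 832 and 1458 in the 4 libraries, higher in both HFD libraries (log2 ratios 0.68 and 0.81). Ppara read 49.3, 76.7, 47.4 and 81.3 (0.64 and 0.78). Ucp2, an uncoupling-protein family carrier, read 47.4, 12.98, 73.7 and 16.7, lower in both HFD libraries (−1.87 and −2.14). Ppargc1a read 64.1, 70.2, 106 and 72.7, and SP-ND was the highest library. In WT, 3 of 32 assembly factors measured were higher by 0.5 on HFD (Uqcc3, Coa3 and Coa6), against 6.4% of all genes. In SP 0 were higher (6.43% of all genes) and 2 lower (Cox20 and Atpaf1, against 12.1% of all genes). None of 6 genes of mitochondrial DNA upkeep passed 0.5 in any of the 4 comparisons.

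Other classes were read the same way. In thick ascending limb-like cells the median HFD to ND log2 ratio was 0.20 in WT and 0.19 in SP, against −0.03 and −0.04 over all genes, with 2 of 80 subunits higher by 0.5 in WT (4.13% of all genes) and 1 in SP (3.61%). Distal convoluted tubule-like cells had 0.00 and 0.18. Connecting tubule and principal cell-like cells had a median of −0.30 in WT with 9 of 79 lower (10.7% of all genes), and −0.06 in SP with 0 lower (6.21% of all genes). In all kept cells together the medians were 0.11 and 0.03, and 1 of 80 was lower by 0.5 in WT (4.12% of all genes). That one was Atp5k, at 868, 592, 718 and 599 in the 4 libraries.

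Fibroblast or mural-like cells gave the largest counts, with 28 of 81 subunits higher in WT-HFD than in WT-ND (17.6% of all genes) and 39 lower in SP-HFD than in WT-HFD (16.7%). WT-HFD was the library apart, at 51160 CPM against 32005 to 40048. In that library the class also held thick ascending limb markers at 4074 CPM, against 489 to 734 in the other 3, and proximal tubule markers at 4046 against 559 to 2590. The part of those markers in the result was not tested. In podocyte-like cells 15 of 78 were higher in WT-HFD than in WT-ND (6.01% of all genes), with a median of 0.34, and 1 cluster of the class had 379 of its 585 cells from WT-HFD. Without that cluster the median was 0.02.

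Across the 11 classes, 78 subunits passed 20 CPM in every class. Of these, 2 had a log2 ratio of WT-HFD to WT-ND below 0 in all 11 classes (3.82% of all genes), Atp5k and Ndufa2, and 5 had it above 0 in all 11 (3.31%): Ndufa6, Ndufa8, Ndufs4, Ndufs8 and Atp5h. In SP, 1 was below 0 in all 11 (4.71% of all genes), again Atp5k, and 10 were above (3.88%): Ndufa6, Ndufa8, Ndufb8, Ndufb10, Ndufc2, Ndufs4, Ndufs8, Ndufv2, Uqcrh and Cox7a2l. For SP-ND against WT-ND, 0 were above 0 in all 11 classes (2.61% of all genes) and 5 were below (1.62%): Atp5e, Atp5k, Ndufa1, Ndufa3 and Ndufa13. For SP-HFD against WT-HFD there were 0 in either direction (0.7% of all genes below, 2.64% above). Atp5k ranged from −1.05 (T or NK-like) to −0.38 (fibroblast or mural-like) in WT and from −0.37 to −0.07 in SP, and its WT-ND level is the highest of the 4 libraries in all kept cells. Because all classes of a condition came from 1 library, a shift seen in every class cannot be told apart from a difference between library preparations.

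The make-up of the mitochondrial subunits also differed between libraries. mt-Cytb, the mitochondrial subunit of complex III, made up 10.2%, 14.003%, 9.55% and 13.2% of the mitochondrial UMIs of all kept cells in the 4 libraries. Both HFD libraries were above both ND libraries. The HFD to ND log2 ratio was above 0 in 11 of 11 classes in WT (0.37 to 0.63) and in 11 of 11 in SP (0.37 to 0.65). mt-Co1, the catalytic subunit of complex IV, read 14.1%, 11.9%, 13.7% and 12.3%, lower on HFD in 11 of 11 classes in each genotype. mt-Nd1 (5.49%, 4.78%, 5.59% and 5.02%) and mt-Nd3 (1.52%, 1.16%, 1.41% and 0.913%), both of complex I, were also lower in 11 of 11. All are shares of the same mitochondrial UMIs, so a higher mt-Cytb share by itself lowers the shares of the others. The part of this in the lower shares was not tested.

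mt-Atp8, the small partner of mt-Atp6 in the overlapping pair printed above, read 0.486%, 0.243%, 0.405% and 0.267%, and was lower on HFD in 11 of 11 classes in each genotype (log2 ratios −1.17 to −0.72 in WT and −0.73 to −0.36 in SP). mt-Atp6 varied much less, at 20.9%, 19.9%, 21.6% and 19.3%, as did mt-Co3 at 18.7%, 19.9%, 19.8% and 20.1% and mt-Co2 at 13.2%, 13.3%, 12.4% and 13.7%. mt-Nd4l, the small partner of mt-Nd4, read 0.977%, 0.616%, 0.776% and 0.781%, lower in 11 of 11 classes in WT and in 3 of 11 in SP. mt-Nd4 read 6.004%, 6.30%, 6.22% and 6.46%. mt-Nd6, the only one of the 13 on the opposite strand, read 0.137%, 0.0650%, 0.0983% and 0.0751%, lower on HFD in 11 of 11 classes in WT and 10 of 11 in SP. mt-Nd2 (6.87%, 6.63%, 7.09% and 6.64%) and mt-Nd5 (1.49%, 1.16%, 1.41% and 1.26%) complete the set.

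The same shift was present in barcodes at or above 50% mitochondrial UMIs, which are not among the kept cells. mt-Cytb made up 10.4%, 13.4%, 10.1% and 13.2% there in the 4 libraries, and mt-Atp8 0.482%, 0.266%, 0.411% and 0.315%. With 1 library per condition, diet and library preparation cannot be told apart here.

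**Figure D4:**
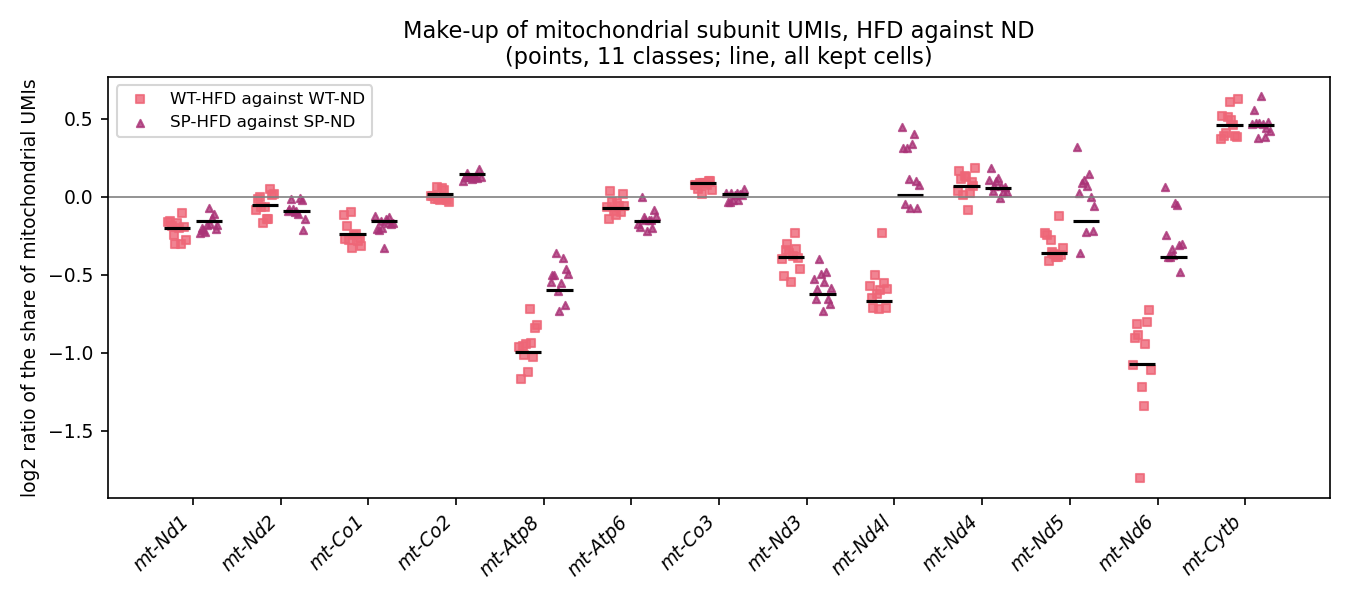
Log2 ratio of HFD to ND in each of the 13 mitochondrial subunits' share of mitochondrial UMIs, for WT (squares) and SP (triangles), with 1 point per class (11 classes) and a line for all kept cells. mt-Cytb lies above 0 in every class (0.37 to 0.65), and mt-Atp8, mt-Nd1, mt-Nd3 and mt-Co1 lie below 0 in every class.

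Barcodes at or above 50% mitochondrial UMIs were then compared with kept cells of the same class and library. By construction they hold more mitochondrial UMIs, but the level of nuclear subunits in CPM is not fixed by that limit. Between 3700 and 5579 such barcodes per library lay within the same range of detected genes, and 91.8 to 96.6% of them could be placed in a class by their nearest kept cells. In proximal tubule-like barcodes (655 to 1096 per library) the nuclear subunits summed to 34406, 37066, 38479 and 35090 CPM in the 4 libraries. Each is below the 53309 to 60955 of kept proximal tubule-like cells. The log2 ratio to kept cells averaged −0.69 ± 0.08 (SD over 4 libraries).

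Of 79 subunits, 50 were lower by a log2 ratio of at least 0.5 in all 4 libraries (8.36% of all genes) and 0 were higher (3.98%). At any size, 78 of 79 were lower in all 4 (32.4% of all genes), and the median over all genes was 0.07. Cox5a was lowest, at 315, 343, 347 and 296 CPM against 627, 933, 745 and 901 in kept cells (mean log2 ratio −1.29 ± 0.29). Ndufa4 read 1050, 993, 1056 and 810 against 2147, 2412, 2254 and 2288 (−1.23 ± 0.21). Cox7a2 (−1.05 ± 0.15) and Cox8a (−1.01 ± 0.11), both of complex IV, came next. The exception was Ndufs1, at 221, 230, 267 and 269 against 231, 242, 230 and 269, where the values overlap (0.02 ± 0.13). Sdhc (−0.18 ± 0.08), Ndufa10 (−0.19 ± 0.13) and Uqcrc1 (−0.25 ± 0.08) were the next closest to 0.

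Intercalated cell-like barcodes fell further, from 83082 to 94085 CPM in kept cells to 40134, 46452, 43268 and 49157 (mean log2 ratio −0.96 ± 0.07), with 72 of 79 subunits lower by 0.5 in all 4 libraries (9.13% of all genes). Cox5a (−1.26 ± 0.17) was again the lowest and Ndufs1 (0.01 ± 0.12) again near 0. Distal convoluted tubule-like barcodes differed by −0.59 ± 0.15, with 17 of 79 lower (1.36% of all genes). Thick ascending limb-like barcodes differed by −0.17 ± 0.07 with 0 of 80 lower (0.478% of all genes), at 83896 to 91413 CPM against 90887 to 103858 in kept cells. At any size, 55 of these 80 were lower in all 4 libraries (21.4% of all genes) and 1 was higher. In distal convoluted tubule-like barcodes 76 of 79 were lower at any size (22.2% of all genes) and 0 higher. Endothelial-like barcodes, of which there were 29 to 65 per library, differed by 0.13 ± 0.10 with 0 of 78 lower (2.32% of all genes). At any size, 6 of these 78 were lower in all 4 libraries (20.9% of all genes) and 20 were higher. The median there was 0.11 over the subunits and −0.22 over all genes. Connecting tubule and principal cell-like barcodes (61 to 97 per library) varied most between libraries, at −0.37, −0.77, −0.15 and −0.84 (−0.53 ± 0.33). At a log2 ratio of at least 0.5, 5 of 79 subunits were lower in all 4 (10.8% of all genes), a share below that of all genes. At any size, 52 of 79 were lower in all 4 (30.1% of all genes) and 2 higher. The median was −0.53 over the subunits and −0.18 over all genes. Over these 6 classes the mean difference was largest in intercalated cell-like and proximal tubule-like barcodes and smallest in endothelial-like and thick ascending limb-like ones.

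In the shallow clusters with the proximal tubule list highest the difference was −0.999 ± 0.148, with 71 of 79 subunits lower by 0.5 in all 4 libraries (17% of all genes) and a median over all genes of −0.20. In those with the erythroid list highest it was −0.51 ± 0.11, with 7 of 79 lower (1.47% of all genes).

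The level was also read in steps of 10% of mitochondrial UMIs, over the barcodes of a class with at least 20 in the step. Here, as in the comparison with kept cells, doublets were removed only below 50%, since barcodes at or above 50% were not scored for them. In proximal tubule-like barcodes it averaged 64444 CPM at 10 to 20%, 65972 at 20 to 30%, 58709 at 30 to 40%, 48260 at 40 to 50%, 41170 at 50 to 60%, 33909 at 60 to 70%, 28944 at 70 to 80% and 26624 at 80 to 90%. At 0 to 10% the class read 57719 (2 libraries, 72 barcodes). From 20% on, each step in this class was lower than the one before, on both sides of the 50% limit. Distal convoluted tubule-like barcodes went from 117114 at 10 to 20% and 109375 at 20 to 30% to 61424 at 60 to 70%. At 70 to 80% they read 54892.5 (2 libraries, 47 barcodes). Thick ascending limb-like barcodes read 117880 at 0 to 10% (2 libraries, 49 barcodes) and averaged 88775 at 10 to 20%. They stayed between 93091 and 99204 from 20 to 60%, then read 81286 at 60 to 70% and 64896 at 70 to 80% (3 libraries, 138 barcodes). The shallow clusters with the proximal tubule list highest did not fall throughout: from 58423 at 20 to 30% they reached 23255 at 70 to 80%, and they were higher again at 28257 at 80 to 90% and 39798 at 90 to 100%. All barcodes together also read more at 90 to 100% (41335) than at 70 to 80% (31768).

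**Figure D5:**
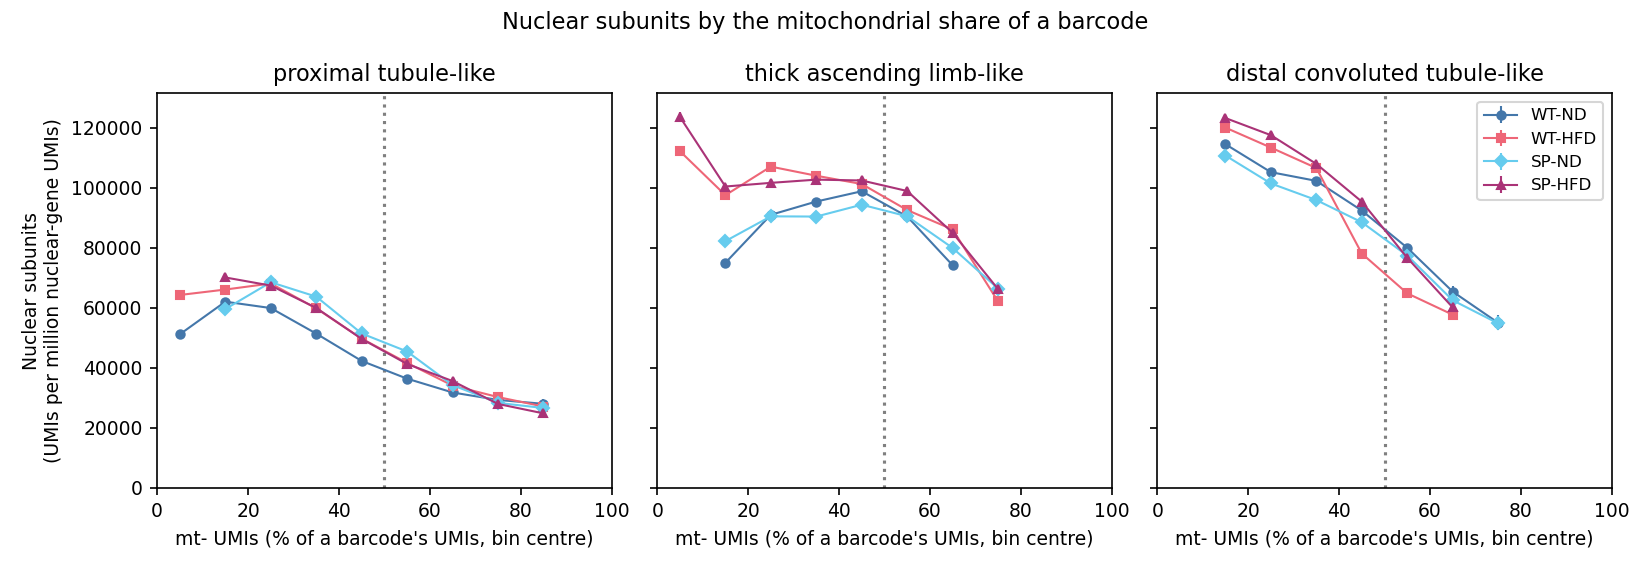
Summed nuclear subunits in CPM against the mitochondrial percentage of the barcodes in steps of 10%, for 3 tubule classes, with 1 line per library and a dotted vertical line at the 50% limit. Proximal tubule-like barcodes go from a mean of 65972 at 20 to 30% to 26624 at 80 to 90%, while thick ascending limb-like barcodes average 93091 to 99204 from 20 to 60% and 64896 at 70 to 80%.

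Other values moved with this result. Proximal tubule-like barcodes at or above 50% held thick ascending limb markers at 698 to 1208 CPM, against 467 to 582 in kept cells, and proximal tubule markers at 21322 to 26824 against 21098 to 26648. In intercalated cell-like barcodes the class's own markers read 5664 to 8938 against 11588 to 14533. Median nuclear UMIs per proximal tubule-like barcode were 2801 to 4550, against 5841 to 9918 in kept cells. Subunit transcripts are short, with a median length of 659 bases against 2037 over the other genes, and over 5709 other genes the log2 ratio rose with transcript length (Spearman's rho 0.53 across genes, which share the same libraries). Over the 79 subunits rho was 0.17. Length here is the median over the annotated protein-coding transcripts of a gene. It put Ndufs1, the largest subunit of complex I, at only 651 bases, so the rho over the subunits cannot settle how far length matters among them. The part of these values in the result was not tested. Among supporting genes, 8 of 33 assembly factors and 7 of 13 carriers and control genes (Cycs, Slc25a5, Atpif1, Higd1a, Higd2a, Chchd2 and Chchd10) were lower by 0.5 in all 4 libraries (8.36% of all genes). The tricarboxylic acid cycle had 1 of 13 lower and mitochondrial DNA upkeep 1 of 8. Of 7 nuclear regulators 0 were lower, and Esrra was higher (3.98% of all genes).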

How the data were processed

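Per the labels and file headers, the authors counted 10x Genomics 3′ reads with Cell Ranger against mm10 and deposited filtered matrices of UMI counts, 1 per condition, holding barcodes of at least 500 UMIs. The version of Cell Ranger is 2.1.1 in the submitters' processing notes and 6.1.2 in the file headers, and the study's methods give another. The number of mice per library is not given in the sources used here.

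Members of the subunit list and the gene lists were chosen with earlier results of these data known. The filter kept barcodes in which 200 to 5000 genes were detected and mitochondrial UMIs were below 50%. Among these, barcodes scoring highest by their simulated-doublet neighbours were removed (0.8% per 1000 barcodes). Barcodes at or above 50% mitochondrial UMIs were not scored for doublets. The libraries were integrated by canonical correlation and clustered in Seurat 5.3.0 under R 4.3.3 (2000 features, 50 components, resolution 0.5) without mitochondrial genes or subunits. Clusters were named from fixed marker lists. No ambient RNA was subtracted. Barcodes at or above 50% were placed by a vote of 60% among 20 nearest kept cells of their library. Of held-out kept cells, 89.9 to 96.9% could be placed, and 79.7 to 87.6% of those placed were correct.

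UMIs were summed per class and library with Python 3.11.15, numpy 2.4.6, scipy 1.17.1 and pandas 2.3.3. Levels have exact Poisson intervals and ratios exact conditional binomial intervals (95%), checked on simulated data. These cover counting error only, and UMIs of a cell are not independent. Subunits and genes with a mean of at least 20 CPM (UMIs per 1000000 nuclear UMIs) over the libraries compared were measured, and a log2 ratio of 0.5 counted as higher or lower. With 1 library per condition no test was made and no additive model was fitted. Named genes are the 13 mitochondrial subunits, the 2 highest nuclear subunits of each complex, the 3 largest and 3 smallest ratios in proximal tubule-like and all kept cells, isoform groups, complex II and the 5 subunits that differed most between classes. Others named were chosen after their values were seen, among them Ndufs1, Cox8a and those listed by a count. Alternatives changed the denominator, centring, weighting of cells, low-value filter, mitochondrial and UMI limits, doublets, integration, ambient RNA and the log2 limit.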

Additional observations from a re-analysis of the deposited data

Results flagged for a closer look

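The mitochondrial subunits of podocyte-like cells moved in opposite directions with diet in the 2 genotypes. Their share of all UMIs was 9.76% in WT-ND and 13.1% in WT-HFD (log2 ratio 0.43), against 11.7% and 9.55% in SP (−0.29). The difference between genotypes was not tested, since each condition is 1 library. Without the podocyte-like cluster in which 379 of 585 cells came from WT-HFD, the WT ratio was −0.50, so that both genotypes then had a ratio below 0. That exclusion was chosen after seeing the data.

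Thin limb and inner medulla-like cells did the same, from 14.04% in WT-ND to 18.4% in WT-HFD (log2 ratio 0.39) and from 17.2% in SP-ND to 13.5% in SP-HFD (−0.35). This difference was not tested either, and the class held 120 to 192 cells per library. A class was flagged where the WT and SP ratios had opposite signs and each was at least 0.25 in size. Opposite signs short of that size stood in fibroblast or mural-like (0.71 and −0.21) and intercalated cell-like cells (0.07 and −0.32). They also stood in connecting tubule and principal cell-like cells (0.03 and −0.08) and the shallow clusters with the proximal tubule list highest (0.19 and −0.31).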

How the results depend on the processing

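Among values that answer a comparison, recomputed under each alternative, 55 moved by less than their spread (the SD over libraries or the counting interval, and for counts 1.5 times) and 50 by more. Among values for named subunits and other classes, 306 moved by less and 134 by more, and no log2 value of at least 0.5 in size changed sign. No paired analysis was possible because each condition is 1 library and no result came from a test.

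In proximal tubule-like cells the median log2 ratio of the nuclear subunits in WT (0.21) became 0.15 over all barcodes and 0.30 as a mean over cells. In SP (0.05) it became 0.15 with all UMIs as denominator and 0.15 centred on all genes. For SP-ND against WT-ND (0.17) it became 0.074 with all UMIs, 0.082 over all barcodes, 0.0044 centred and 0.23 as a mean over cells. For SP-HFD against WT-HFD (0.00) it became −0.095 over all barcodes and −0.073 as a mean over cells. At a log2 limit of 0.25 in place of 0.5, 31 subunits were higher (20.7% of all genes) and 2 lower (18.4%) in WT, 10 higher (15.5%) and 4 lower (31.8%) in SP, and 21 higher for SP-ND against WT-ND (33.8%). At a limit of 1, 0 were higher in WT (1.28% of all genes) and 0 lower in SP (2.34%).

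The mitochondrial ratios, all under 0.5 in size, depended on the limit for keeping cells, and in 3 of 4 comparisons the sign differed under some alternative. In WT (−0.01) the ratio was 0.14 over all barcodes, −0.10 under 30% mitochondrial UMIs, −0.074 as a mean over cells, −0.0077 without doublet removal, −0.0028 without integration and −0.21 relative to nuclear subunits. In SP (−0.18) these were 0.036, −0.12, −0.15, −0.18, −0.20 and −0.32, and −0.19 after subtracting 10% ambient RNA. For SP-ND against WT-ND (0.18) they were 0.33, 0.049, 0.15, 0.18, 0.19 and 0.12, and 0.16 after ambient subtraction. For SP-HFD against WT-HFD (0.01) they were 0.22, 0.025, 0.078, 0.011 and −0.0026, and −0.018 after ambient subtraction. The causes were not tested.

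Levels in CPM were 69535 in distal convoluted tubule-like, 64955 in thick ascending limb-like and 38720 in proximal tubule-like cells with all UMIs as denominator, which is larger by construction. Over all barcodes they were 98573 in distal convoluted tubule-like and 51738 in proximal tubule-like cells, and 109464 in distal convoluted tubule-like cells without integration. With all UMIs as denominator, or over all barcodes, the connecting tubule and principal cell-like cells stood above the proximal tubule-like cells. The log2 difference of barcodes at or above 50% was −0.52 without classes, against −0.69 in proximal tubule-like barcodes. Leaving out 1 library, chosen after seeing the data, gave −0.71 to −0.66. Without WT-HFD the levels were 103577 in distal convoluted tubule-like, 95573 in thick ascending limb-like and 57876 in proximal tubule-like cells.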
